A study of Homo sapiens with 24 samples.

Results

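The genes described here are 45 that repair DNA double-strand breaks and interstrand crosslinks, among 58735 genes counted by RNA sequencing. They were taken by gene name from a list chosen with earlier results of these data known, and all 45 were found. The cells were SAS, a line from a human oral squamous cell carcinoma, carrying NRF2 either as wild type (WT) or with the E79Q substitution. The gene NFE2L2 encodes NRF2, a transcription factor of the antioxidant response, and E79Q alters the stretch of NRF2 that its inhibitor KEAP1 binds. Cells of each genotype received CB-839, an inhibitor of glutaminase, at 0.1 µM or vehicle for 24 hours, and then X-rays at 4 Gy or none, with RNA taken 24 hours after radiation. The 8 groups of 3 libraries were E79Q cells that were irradiated with CB-839, irradiated, given CB-839 or left untreated, and WT cells under the same 4 treatments. All groups are the same tumour line, so no group is normal epithelium. The labels do not say how the E79Q form was introduced, whether either line is 1 clone, or whether replicates were separate cultures, so p-values measure the spread between these libraries, which may be technical. The series text describes 12 irradiated samples, whereas the labels give 24 samples, with and without radiation. The labels do not say that all 24 were prepared at 1 time, so a batch and the effect of radiation cannot be told apart.

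A double-strand break can be rejoined directly by end joining, in which the Ku proteins cap the ends and DNA-dependent protein kinase and DNA ligase IV complete the join. It can instead be resected and copied from the sister chromatid by homologous recombination, in which BRCA1, PALB2 and BRCA2 act together to prepare strand exchange, and this route works mainly in S and G2 phase. Crosslinks between the strands are opened by the Fanconi anemia pathway, whose core complex attaches ubiquitin to FANCD2 and FANCI. The kinases ATM and ATR start the signal from broken and stalled DNA, and many genes of homologous recombination are transcribed with the cell cycle. Ionizing radiation kills tumour cells largely through double-strand breaks.

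Total counts ran from 14285084 to 23640197 per library, and 15956 genes with enough counts were tested. Levels within a gene are given as CPM, counts scaled to a common library total with TMM, and levels between genes as TPM, which also divide by gene length. Counts per gene cannot show the E79Q change itself. The 14 listed targets of NRF2 were higher in E79Q cells in 11 to 14 cases in each of the 4 treatments, with NQO1, a quinone reductase, up by a log2 fold change of 0.73 to 0.95 (largest adjusted p = 2.36e-09, edgeR's quasi-likelihood test with Benjamini-Hochberg adjustment). NFE2L2 itself had a log2 fold change of -0.33 (adjusted p = 0.000496) in untreated cells. All 7 squamous markers (KRT5, KRT14, KRT6A, KRT17, TP63, EPCAM and CDH1) were detected in all 24 libraries, and their summed level ran from 1307 to 2626 CPM. They were lower in E79Q cells in 7 of 7 cases when untreated, 7 after radiation, 6 with CB-839 and 5 with both. Of 8 markers of leukocytes, endothelium and fibroblasts, PTPRC, CD3E and DCN were at 0 in 22 or 23 libraries, and the summed level was 5.04 to 31.6 CPM, the highest in 1 library of untreated E79Q cells through COL1A1. The part of these marker differences in the results on repair genes was not tested.

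Single libraries drifted with the GC content of genes. In replicate 2 of irradiated E79Q cells with CB-839, the log2 CPM of genes with a mean log2 CPM of at least 3, taken as the deviation from their mean over the 24 libraries, rose with GC content by 0.31 for each 10 percentage points (r = 0.75 between GC content and the deviation from the mean of its group, across genes, which are not independent replicates). The slope was 0.17 in replicate 1 of irradiated WT cells with CB-839 (correlation 0.61). Replicate 1 of untreated E79Q cells and replicate 3 of CB-839-treated WT cells also passed the limit of r = 0.45 that was set for drift, with r of 0.49 and 0.48, although their slopes were 0.039 and 0.017. Only positive r was counted as drift. Deviations are taken within groups of 3, and r was -0.75 and -0.46 in replicates 1 and 3 of irradiated E79Q cells with CB-839 and -0.51 in replicate 2 of irradiated WT cells with CB-839, the companions of the first 2 libraries. The repair genes are poor in GC, with a median of 42.1% in their longest transcripts against 48.5% over all genes tested, and a range of 36.1% to 63.8%. Averaged over the repair genes, replicate 2 of irradiated E79Q cells with CB-839 lay -0.46 from the mean of the 24 libraries on the log2 scale, and -0.24 once the GC trend of each library was removed. Its 2 companions lay at -0.023 and -0.15. Replicate 1 of irradiated WT cells with CB-839 lay at -0.23, and at -0.12 with the trend removed. Counts are therefore given also with the GC trend removed and, an alternative chosen after seeing the data, without the 4 libraries. The latter does not even out the slopes. In CB-839-treated WT cells it keeps replicates 1 and 2, with slopes of -0.071 and -0.075, and drops replicate 3. CB-839-treated E79Q cells, all kept, had slopes of -0.053, -0.11 and -0.054. The part of these slopes in calls gained without the 4 libraries was not tested.

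**Figure D1:**
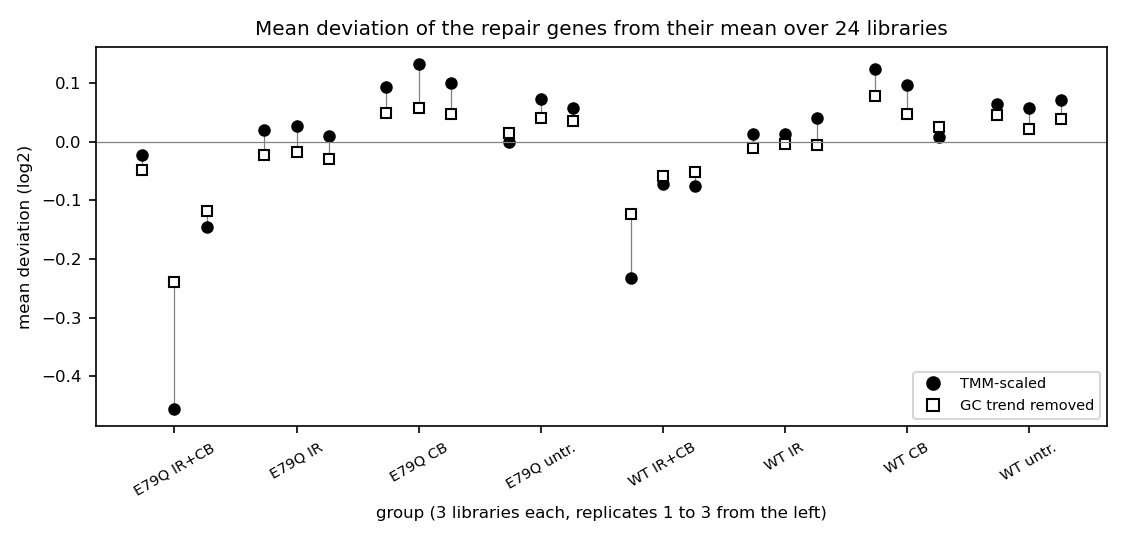
Mean log2 deviation of the tested repair genes from their mean over all 24 libraries, for each library by group, with libraries scaled by TMM (filled circles) and with the GC trend of each library removed (open squares). Replicate 2 of irradiated E79Q cells with CB-839 lies lowest in both, at -0.46 and -0.24.

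The end-joining genes held both ends of the range of levels, but the low end was NHEJ1 at 0.14 TPM. That gene overlaps another and had too few counts to test, and RAD51B was the lowest of the tested genes. XRCC6, which encodes the Ku70 subunit, averaged 844 TPM over the 24 libraries, PRKDC, the catalytic subunit of DNA-dependent protein kinase, 464 TPM, and XRCC5, the Ku80 subunit, 336 TPM. The ligase LIG4 averaged 16.02 TPM, its partner XRCC4 22.0 TPM and the nuclease DCLRE1C (Artemis) 6.47 TPM. PARP1, which marks breaks with poly(ADP-ribose), stood at 303 TPM, and POLQ, the polymerase of alternative end joining, at 25.8 TPM. Among the Fanconi anemia genes, the ubiquitinated pair FANCI and FANCD2 were highest at 60.4 and 54.0 TPM, and FANCC, of the core complex, lowest at 5.81 TPM. The strand exchange genes ran from 62.9 TPM for RAD51AP1, a promoter of strand invasion, to 2.99 TPM for RAD51B, which works in a complex with RAD51C, RAD51D and XRCC2. NBN, the signalling subunit of the MRE11 complex, reached 75.6 TPM. Of the damage kinases, ATR at 30.6 TPM and CHEK1 at 25.7 TPM stood above CHEK2 at 8.69 TPM and ATM at 6.31 TPM, and the adaptors RIF1, MDC1 and TP53BP1 at 35.4, 31.0 and 16.4 TPM. These ranks depend on the deposited lengths, which count every annotated exonic base of a gene, 23972 for ATM and 4493 for CHEK2. Before division by length, ATM averaged 40.1 CPM against 10.4 CPM for CHEK2, and FANCC 19.8 CPM against 8.46 CPM for FANCF.

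**Figure D2:**
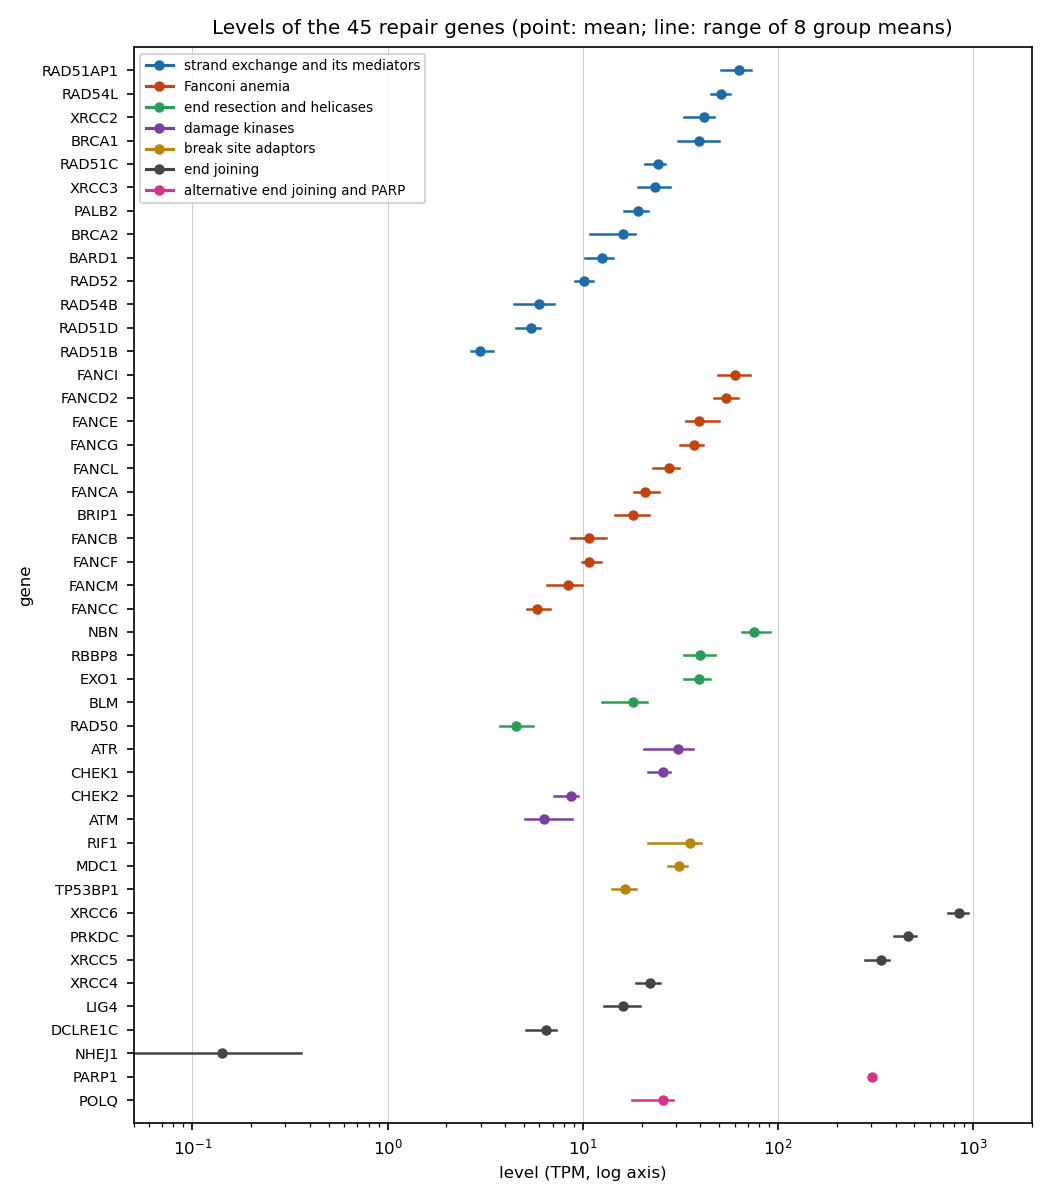
Level of each of the 45 repair genes in TPM on a log axis, ordered and coloured by role; points are means of 24 libraries and lines the range of the 8 group means, with that of NHEJ1 running past the left edge. XRCC6 at 844 TPM, PRKDC, XRCC5 and PARP1 at 303 TPM stand above all other genes shown.

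A few levels are uncertain because genes overlap, and how the authors' counting treated such reads is not given in the sources used here. NHEJ1, which encodes the end-joining factor XLF, had 0 to 5 counts per library and was the 1 gene of the 45 that failed the filter. Of its exonic bases, 65.4% lie in another gene on the same strand, as do 79.7% of those of RAD50, the coiled-coil subunit of the MRE11 complex at 4.53 TPM, and 59.1% of those of the translocase RAD54B. XRCC3 shares 76.7% with KLC1 on the opposite strand, which had 882 to 1569 counts, so without strand reads of the pair cannot be told apart. Pseudogenes named after XRCC6 summed to at most 6 counts in a library.

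Over the 12 comparisons of 1 group with another, 7 of the 44 tested repair genes never passed an adjusted p of 0.05: FANCF, PARP1, RAD50, RAD51B, RAD51C, RAD52 and XRCC4. Their log2 fold changes lay between -0.37 and 0.39 (RAD51B and RAD50 at the ends), and those of PARP1 between -0.028 and 0.095. Of the others, 31 passed only as lower, 3 only as higher and 3 both ways. XRCC5, XRCC6 and MDC1 were called lower in 5 of the 12 comparisons, and XRCC3 higher in 5. These genes lie, by the deposited GRCh38 coordinates, at chr2:216107464-216206303 (XRCC5), chr22:41621119-41664048 (XRCC6), chr6:30699807-30717889 (MDC1) and chr14:103697609-103715504 (XRCC3). ATR, BRCA2, DCLRE1C, POLQ, RIF1 and FANCE were called lower in 4. The comparisons share groups, so these counts are not independent. The same counts were not made over all genes tested, so they do not set the repair genes apart from other genes. In bulk RNA, fewer cells of a type and less RNA per cell cannot be told apart. With 3 libraries against 3, an exact test of 1 gene cannot give a p under 0.1, so calls rest on the spread that edgeR pools over genes.

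**Figure D3:**
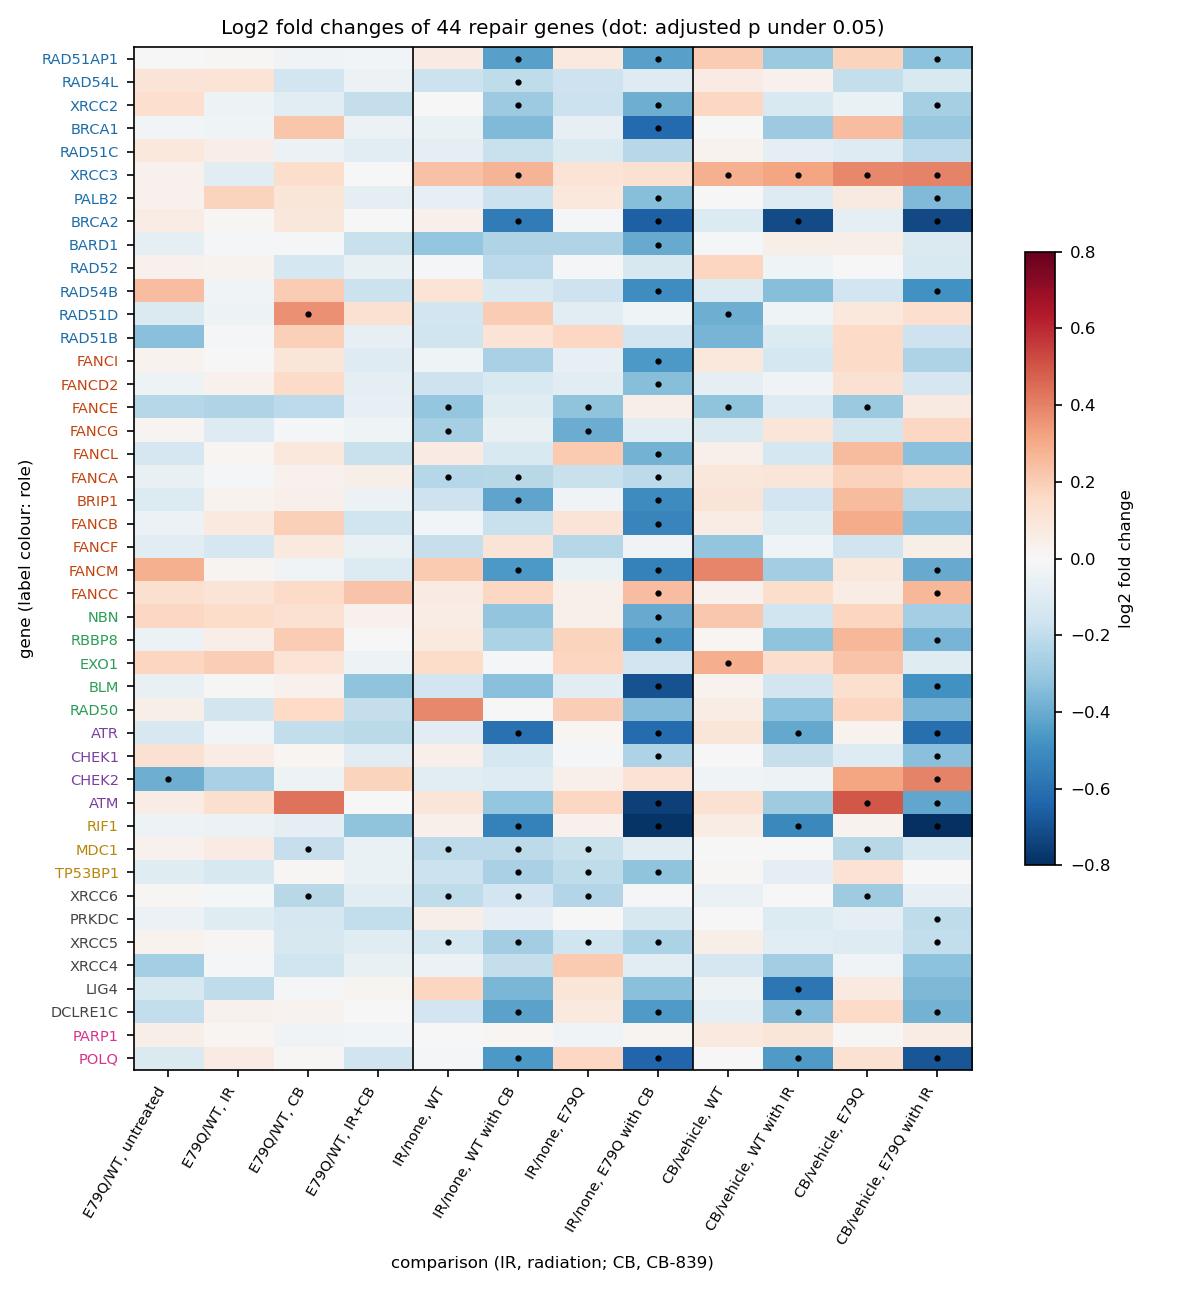
Log2 fold changes of the 44 tested repair genes (down the page, by role) in the 12 comparisons of 1 group with another, in blocks for E79Q against WT, radiation (IR) against none and CB-839 (CB) against vehicle; red is higher in the first-named group, blue lower, and a dot marks an adjusted p under 0.05. Blue dots gather in the radiation and CB-839 comparisons that use irradiated cells with CB-839.

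Without CB-839, radiation lowered 6 of the 44 repair genes in E79Q cells and 6 in WT cells, and raised none. 5 of the 6 were called in both genotypes, from separate libraries: the Ku subunits XRCC6 and XRCC5, the adaptor MDC1, and FANCE and FANCG of the Fanconi core complex. The sixth was TP53BP1, the adaptor that protects ends from resection, in E79Q cells, and FANCA, of the core complex, in WT cells. The falls were small, none past a log2 fold change of -0.40. Over all genes tested, 22.3% were called in E79Q cells (12.2% higher, 10.1% lower) and 17.9% in WT cells (9.41% higher, 8.49% lower). The median log2 fold change of the 44 was -0.016 in E79Q cells and -0.040 in WT cells, against 0.020 and 0.0040 over all genes tested. The genes called lower were 13.6% of the 44 in each genotype. How many of all genes tested were called lower in both genotypes was not counted.

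XRCC6 had 702, 702 and 698 CPM in irradiated E79Q cells, against 834, 808 and 831 CPM in untreated E79Q cells. In WT cells the same gene had 722, 712 and 695 CPM in irradiated WT cells, against 787, 838 and 828 CPM in untreated WT cells. The groups did not overlap in either genotype, and the fall was a log2 fold change of -0.24 in E79Q cells (SE 0.045, adjusted p = 0.00029) and -0.20 in WT cells (SE 0.045, adjusted p = 0.00152, edgeR's quasi-likelihood test). Its partner XRCC5 had 489, 473 and 465 CPM in irradiated E79Q cells, against 511, 537 and 545 CPM in untreated E79Q cells. WT cells gave 474, 480.0 and 464 CPM in irradiated WT cells, against 511, 527 and 526 CPM in untreated WT cells. Again no irradiated library reached an untreated one, and the log2 fold changes were -0.16 (adjusted p = 0.0154) in E79Q cells and -0.14 (adjusted p = 0.036) in WT cells. The remaining end-joining genes PRKDC, LIG4, XRCC4 and DCLRE1C had log2 fold changes of -0.0017, 0.099, 0.21 and 0.076 in E79Q cells and of 0.049, 0.17, -0.045 and -0.15 in WT cells, none past the threshold.

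MDC1, which binds phosphorylated histone H2AX beside breaks, had 66.2, 66.1 and 63.3 CPM in irradiated E79Q cells, against 74.3, 71.7 and 75.4 CPM in untreated E79Q cells, and 58.3, 62.8 and 65.7 CPM in irradiated WT cells, against 74.0, 68.2 and 74.0 CPM in untreated WT cells. Groups were separate in both genotypes, with log2 fold changes of -0.18 (adjusted p = 0.0283) and -0.21 (adjusted p = 0.0126). In the core complex, FANCG had 30.6, 30.2 and 30.9 CPM in irradiated E79Q cells, against 41.9, 37.0 and 41.6 CPM in untreated E79Q cells, and 34.4, 34.5 and 29.5 CPM in irradiated WT cells, against 37.2, 41.1 and 40.2 CPM in untreated WT cells. Its log2 fold change was -0.40 (adjusted p = 0.000708) in E79Q cells and -0.27 (adjusted p = 0.0222) in WT cells, and that in E79Q cells was the largest fall of any repair gene without the drug. FANCE, which joins the complex to FANCD2, had 26.9, 20.6 and 25.9 CPM in irradiated E79Q cells, against 33.1, 27.1 and 31.4 CPM in untreated E79Q cells, and 29.1, 28.6 and 29.2 CPM in irradiated WT cells, against 35.2, 36.8 and 35.6 CPM in untreated WT cells. All irradiated libraries were below all untreated ones of their genotype, with log2 fold changes of -0.32 (adjusted p = 0.0175) and -0.31 (adjusted p = 0.0241). FANCA, another core complex subunit, had 47.2, 49.5 and 47.8 CPM in irradiated WT cells, against 54.8, 58.2 and 56.3 CPM in untreated WT cells, separate groups with a log2 fold change of -0.23 (adjusted p = 0.038), and -0.18 (adjusted p = 0.101) in E79Q cells. The ubiquitinated FANCD2 and FANCI had log2 fold changes of -0.090 and -0.064 in E79Q cells and of -0.16 and -0.034 in WT cells and were not called. With the GC trend removed, FANCA was called also in E79Q cells, and FANCD2 in WT cells.

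As reported, with TMM scaling alone, edgeR's quasi-likelihood test called no strand exchange, resection or helicase gene for radiation without the drug. Over the 13 strand exchange and 5 resection and helicase genes, the smallest adjusted p was 0.103 for RAD54L in E79Q cells and 0.0712 for XRCC3 in WT cells. The median log2 fold changes of the 13 were -0.066 in E79Q cells and -0.055 in WT cells. BRCA1 had 93.1, 92.1 and 99.7 CPM in irradiated E79Q cells, against 93.6, 103 and 102 CPM in untreated E79Q cells, values that overlapped, with a log2 fold change of -0.066 (adjusted p = 0.775). The damage kinases ATM, ATR, CHEK1 and CHEK2 were likewise not called. The difference between the genotypes in the radiation effect was called for 0 of the 44 repair genes, with 0 also at an unadjusted p under 0.05 and 0 by DESeq2, against 1.26% of all genes. Leaving out each library in turn, the calls of FANCG, XRCC5 and XRCC6 in E79Q cells and of XRCC6 in WT cells held every time. Each of the others was lost without at least 1 of the 6 libraries compared, and each of these libraries, replicates 1, 2 and 3 of both groups, ended at least 1 call in each genotype (adjusted p up to 0.133 and 0.144 in E79Q and WT cells). With the GC trend removed, 10 repair genes were lower and 0 higher in E79Q cells, where 14% of all genes were higher and 15.5% lower. They then included the recombination genes BARD1, XRCC2 and RAD54L. In WT cells the counts were 9 lower and 2 higher, where 12.8% of all genes were higher and 11.2% lower. They included BARD1 as lower and XRCC3 and RAD50 as higher. Leaving out the 4 drifting libraries gave 7 lower and 1 higher in E79Q cells (13.7% and 12.6% of all genes higher and lower), with XRCC2 lower and XRCC3 higher. In WT cells it gave 10 lower and 2 higher (13.3% and 13.1%), with BARD1 and RAD54L lower and XRCC3 and RAD50 higher. The 5 genes called in both genotypes stayed called under both settings. The count in WT cells was 2 or 3 without any 1 of the 6 libraries compared and 11 without replicate 2 of irradiated E79Q cells with CB-839, and that in E79Q cells was 3 without replicate 3 of untreated E79Q cells.

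**Figure D4:**
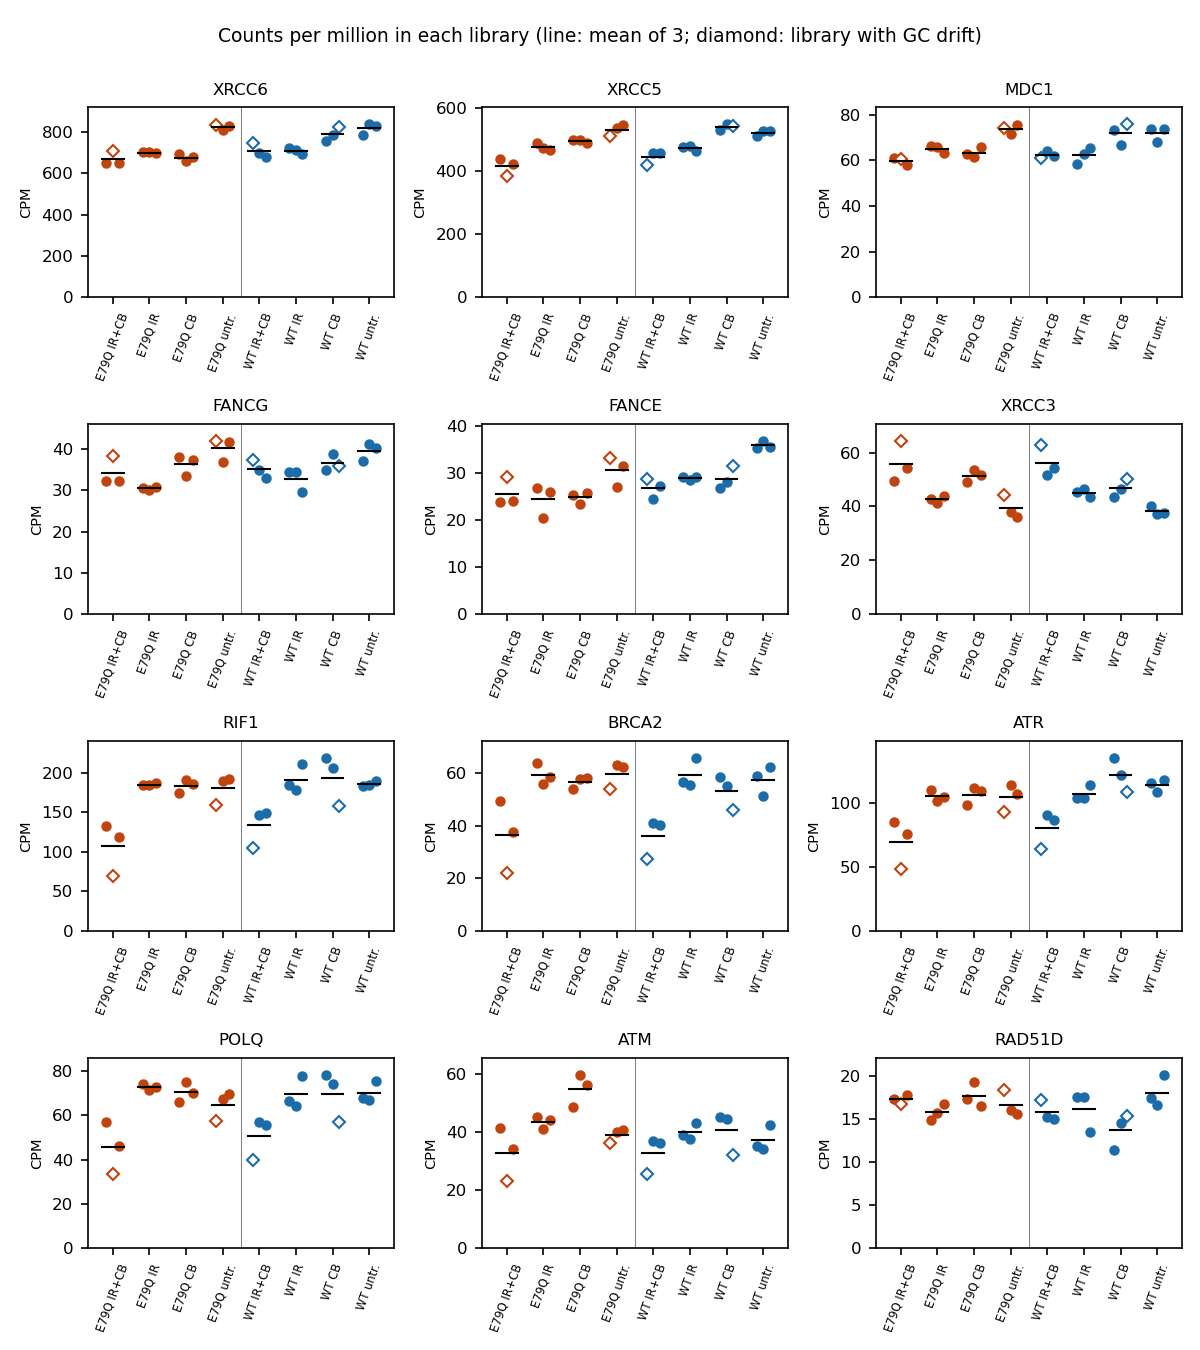
CPM of 12 repair genes in each of the 24 libraries by group (IR, radiation; CB, CB-839; untr., untreated), with E79Q cells at the left of each panel and WT cells at the right; each point is a library, each line the mean of 3, and open diamonds are the 4 libraries with GC drift. XRCC6 and XRCC5 are lower in irradiated than in untreated cells of both genotypes, and RIF1, BRCA2, ATR and POLQ are lowest in the drifting libraries of irradiated cells with CB-839.

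In cells that received CB-839, radiation lowered 25 of the 44 repair genes and raised 1 in E79Q cells, and lowered 15 and raised 1 in WT cells. Over all genes tested, 29.2% were called in E79Q cells (15.3% higher, 13.9% lower) and 23.7% in WT cells (13.2% higher, 10.4% lower). The median log2 fold change of the 44 was -0.34 in E79Q cells and -0.21 in WT cells, against -0.0042 and -0.0026 over all genes tested. 12 genes were called lower in both genotypes, a count not made over all genes tested: the kinase ATR, the adaptors RIF1 and TP53BP1, XRCC5 and DCLRE1C of end joining, POLQ, the recombination genes BRCA2, RAD51AP1 and XRCC2, and FANCA, FANCM and BRIP1 of the crosslink pathway. Of these, FANCA had log2 fold changes of -0.21 (adjusted p = 0.0414) in E79Q cells and -0.22 (adjusted p = 0.0363) in WT cells and was lost in 22 and 20 of the 24 fits without 1 library, and BRIP1 was lost in 17 in WT cells. The log2 fold changes ran with GC content. In E79Q cells 23 of the 29 repair genes under 45% GC were called lower, against 2 of the 15 at or above it, while over all genes the shares were 28.8% and 5.38%. In WT cells the counts were 10 of 29 and 5 of 15, and the shares over all genes 18.1% and 6.02%. Across the 44 genes, which share the same libraries, the log2 fold change and GC content had r = 0.729 in E79Q cells and 0.573 in WT cells with the drug, and -0.441 and -0.334 without it. With the GC trend of each library removed, 20 repair genes were lower and 0 higher in E79Q cells, where 11.5% of all genes were lower and 15.4% higher. In WT cells 16 were lower and 0 higher, where 12.5% of all genes were lower and 13.9% higher. Without the 4 libraries 20 were lower and 0 higher in E79Q cells (10.8% and 12.9% of all genes), and 19 lower and 1 higher in WT cells (12.4% and 13.1%). The part of the GC drift in any single fall was not tested.

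**Figure D5:**
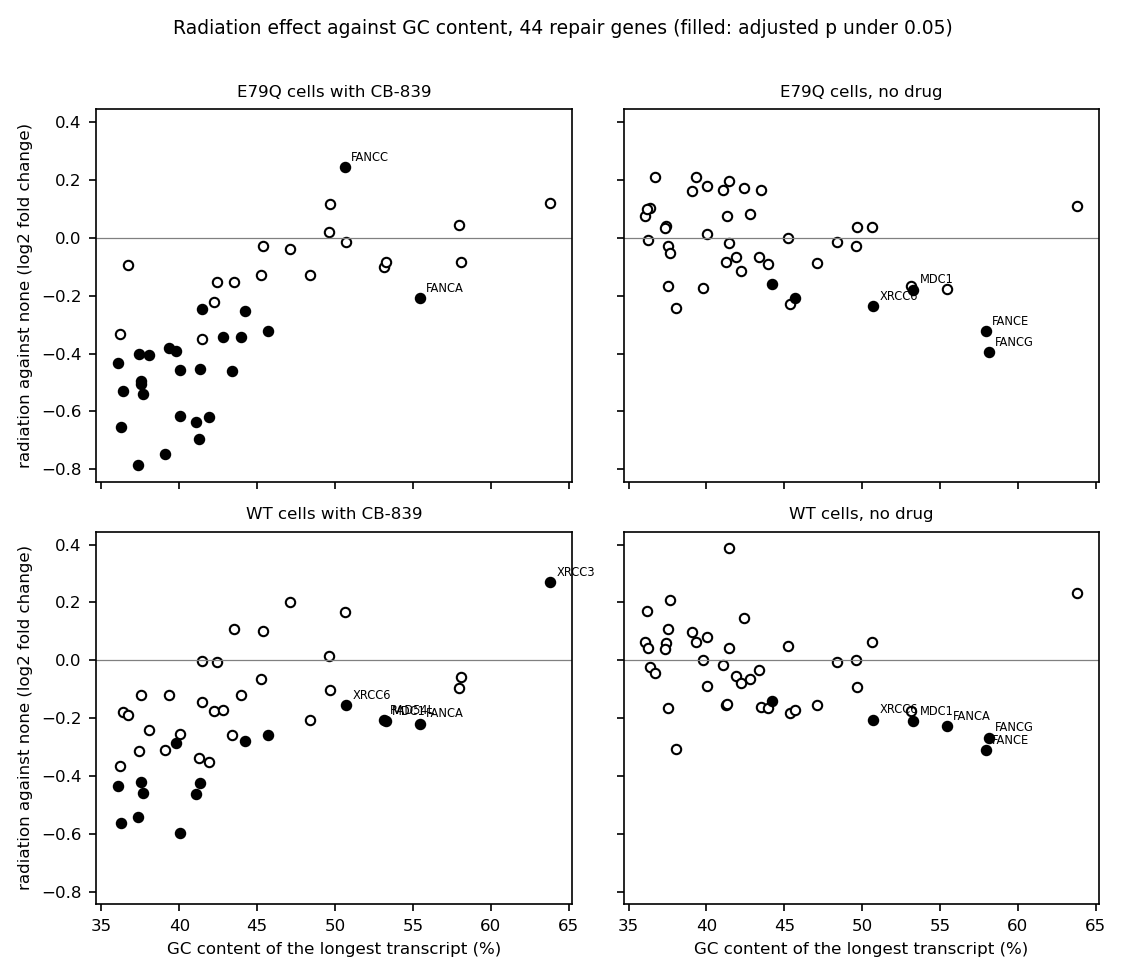
Log2 fold change of radiation against none for the 44 tested repair genes against the GC content of their longest transcript, in E79Q and WT cells with CB-839 (left) and with no drug (right); filled points have an adjusted p under 0.05. With CB-839 the called falls gather under 45% GC in E79Q cells (23 of 29 genes, against 2 of 15 at or above it). In WT cells with CB-839 they were 10 of 29 and 5 of 15. Without the drug the called genes other than XRCC5 lie above 45% GC.

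Among the adaptors, RIF1, which acts with TP53BP1 to hold back resection, showed the largest fall in E79Q cells. It had 133, 69.8 and 119 CPM in irradiated E79Q cells with CB-839, against 175, 191 and 186 CPM in CB-839-treated E79Q cells. All 3 irradiated libraries were below the lowest unirradiated one, and the lowest of all was the drifting replicate 2. The log2 fold change was -0.78 (SE 0.15, adjusted p = 0.000336) and -0.53 with the GC trend removed (adjusted p = 6.3e-06). In WT cells RIF1 had 105, 147 and 149 CPM in irradiated WT cells with CB-839, against 219, 205 and 158 CPM in CB-839-treated WT cells. The groups were separate there too, with a log2 fold change of -0.54 (adjusted p = 0.00884) and -0.36 with the GC trend removed (adjusted p = 0.000628). TP53BP1 had 56.9, 44.4 and 49.5 CPM in irradiated E79Q cells with CB-839, against 61.8, 62.9 and 63.2 CPM in CB-839-treated E79Q cells, and 53.1, 54.2 and 48.7 CPM in irradiated WT cells with CB-839, against 64.2, 60.1 and 62.1 CPM in CB-839-treated WT cells. In both genotypes no library of one group reached the other, and it had log2 fold changes of -0.32 (adjusted p = 0.00154) in E79Q cells and -0.26 (adjusted p = 0.00995) in WT cells, both called. MDC1 was called lower in WT cells at -0.21 and had -0.081 (adjusted p = 0.326) in E79Q cells, and this difference between the genotypes was not called (adjusted p = 0.674). With the GC trend removed MDC1 was called lower in both genotypes, and without the 4 drifting libraries in neither.

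Of the damage kinases, ATR, which answers stalled forks and resected ends, had 85.5, 48.1 and 75.6 CPM in irradiated E79Q cells with CB-839, against 98.5, 111 and 109 CPM in CB-839-treated E79Q cells. It had 64.2, 90.8 and 87.1 CPM in irradiated WT cells with CB-839, against 135, 122 and 109 CPM in CB-839-treated WT cells. No irradiated library reached an unirradiated one in either genotype, and the log2 fold changes were -0.61 (adjusted p = 0.00121) and -0.60 (adjusted p = 0.00151). Both kept their call with the GC trend removed, at -0.41 and -0.47. ATM, the kinase that answers unresected breaks, had 41.3, 23.0 and 34.1 CPM in irradiated E79Q cells with CB-839, against 48.5, 59.7 and 56.1 CPM in CB-839-treated E79Q cells. Its fall in E79Q cells was a log2 fold change of -0.75 (adjusted p = 0.000613) and -0.52 with the GC trend removed (adjusted p = 0.000124). WT cells gave -0.31 (adjusted p = 0.15), not called, although ATM was called lower there without the 4 drifting libraries. The difference between the genotypes in this effect was called for 0 of the 44 genes, against 1.08% of all genes, with 2 at an unadjusted p under 0.05 and 0 by DESeq2. In WT cells ATM had 25.4, 37.0 and 36.1 CPM in irradiated WT cells with CB-839, against 45.2, 44.3 and 32.2 CPM in CB-839-treated WT cells. CHEK1, the effector of ATR, was called in E79Q cells at -0.25 (adjusted p = 0.0369) but stood at -0.073 with the GC trend removed (adjusted p = 0.444), and its groups overlapped.

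In homologous recombination, BRCA2, the central mediator of strand exchange, had 49.3, 22.0 and 37.6 CPM in irradiated E79Q cells with CB-839, against 54.0, 57.8 and 58.1 CPM in CB-839-treated E79Q cells. WT cells gave 27.2, 40.8 and 40.2 CPM in irradiated WT cells with CB-839, against 58.3, 55.1 and 46.1 CPM in CB-839-treated WT cells. The log2 fold changes were -0.65 (adjusted p = 0.00513) and -0.56 (adjusted p = 0.0169), and -0.39 and -0.37 with the GC trend removed, both still called. BRCA1, a ubiquitin ligase that directs ends to recombination, had 93.8, 53.1 and 84.2 CPM in irradiated E79Q cells with CB-839, against 114, 126 and 115 CPM in CB-839-treated E79Q cells. Those groups were separate, with a log2 fold change of -0.62 (adjusted p = 0.000963) and -0.47 with the GC trend removed (adjusted p = 0.000113). WT cells gave -0.35 (adjusted p = 0.0539), and BRCA1 was called lower there with the GC trend removed and without the 4 drifting libraries. RAD51AP1 had 40.3, 27.1 and 39.1 CPM in irradiated E79Q cells with CB-839, against 46.8, 51.9 and 44.6 CPM in CB-839-treated E79Q cells, and 30.8, 38.2 and 39.1 CPM in irradiated WT cells with CB-839, against 49.7, 50.0 and 46.3 CPM in CB-839-treated WT cells. In both genotypes no library of one group reached the other, and it fell by 0.43 in E79Q cells (adjusted p = 0.00242) and by 0.44 in WT cells (adjusted p = 0.00237) on the log2 scale. With the trend removed it was -0.13 in E79Q cells (adjusted p = 0.0773), no longer called, and -0.24 in WT cells (adjusted p = 0.00114). XRCC2, a recombination mediator, had 49.7, 36.4 and 44.6 CPM in irradiated E79Q cells with CB-839, against 56.3, 56.7 and 57.9 CPM in CB-839-treated E79Q cells, and 48.0, 45.7 and 54.8 CPM in irradiated WT cells with CB-839, against 64.2, 64.0 and 53.1 CPM in CB-839-treated WT cells. Its groups were separate in E79Q cells and overlapped in WT cells, and its log2 fold change was -0.39 (adjusted p = 0.0014) in E79Q cells and -0.29 (adjusted p = 0.0153) in WT cells, and only the fall in E79Q cells stayed called with the trend removed (adjusted p = 0.0342 and 0.0646). PALB2, which bridges BRCA1 and BRCA2, BARD1, the partner of BRCA1, and RAD54B were called in E79Q cells at -0.34, -0.40 and -0.50, and none of these stayed called with the trend removed (adjusted p = 0.0931, 0.375 and 0.241).

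BLM, the helicase of resection and of junction dissolution, had 28.8, 13.9 and 25.7 CPM in irradiated E79Q cells with CB-839, against 34.3, 39.0 and 36.5 CPM in CB-839-treated E79Q cells. Its groups did not overlap, and the log2 fold change was -0.69 (adjusted p = 0.000602) and -0.53 with the GC trend removed (adjusted p = 0.000254). RBBP8 (CtIP), which starts resection, and NBN were called at -0.46 (adjusted p = 0.00821) and -0.40 (adjusted p = 0.0177), and with the trend removed at adjusted p = 0.0117 and 0.0763. In WT cells these 3 had log2 fold changes of -0.34, -0.25 and -0.31, none called, although BLM and NBN were called lower there without the 4 drifting libraries. The crosslink pair FANCI and FANCD2 fell in E79Q cells by 0.46 and 0.34 (adjusted p = 0.000961 and 0.000711) and stayed called with the trend removed, at -0.35 and -0.24. In WT cells FANCI was called lower with the trend removed and without the 4 drifting libraries, and FANCD2 under neither setting. FANCM, a translocase at crosslinks, had 19.8, 11.1 and 14.2 CPM in irradiated E79Q cells with CB-839, against 20.9, 23.2 and 20.9 CPM in CB-839-treated E79Q cells, and 13.2, 17.3 and 17.7 CPM in irradiated WT cells with CB-839, against 23.2, 22.9 and 20.2 CPM in CB-839-treated WT cells. In both genotypes no library of one group reached the other, and its log2 fold change was -0.54 (adjusted p = 0.00541) in E79Q cells and -0.46 (adjusted p = 0.0168) in WT cells, and the helicase BRIP1 -0.50 (adjusted p = 0.0145) and -0.42 (adjusted p = 0.0453). FANCG and FANCE, which radiation lowered without the drug, had log2 fold changes of -0.083 and 0.045 in E79Q cells and -0.058 and -0.096 in WT cells with it, not called. With the GC trend removed FANCG was called lower in E79Q cells. FANCC was the 1 gene called higher in E79Q cells. It had 22.6, 25.6 and 23.6 CPM in irradiated E79Q cells with CB-839, against 21.0, 19.6 and 20.0 CPM in CB-839-treated E79Q cells. The groups did not overlap, with 0.25 (adjusted p = 0.0419) and 0.20 with the GC trend removed (adjusted p = 0.0835).

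In end joining, XRCC5 was called lower in all 4 radiation comparisons. With CB-839 it had 438, 383 and 422 CPM in irradiated E79Q cells with CB-839, against 498, 497 and 488 CPM in CB-839-treated E79Q cells, and 419.8, 456 and 457 CPM in irradiated WT cells with CB-839, against 530.5, 547 and 541 CPM in CB-839-treated WT cells. The log2 fold changes were -0.25 (adjusted p = 0.000245) and -0.28 (adjusted p = 6.72e-05), and both calls held when each of the 24 libraries was left out in turn. XRCC6 had 652, 707 and 649.6 CPM in irradiated E79Q cells with CB-839, which overlapped 692, 661 and 677 CPM in CB-839-treated E79Q cells, and a log2 fold change of -0.015 (adjusted p = 0.838), against -0.15 (adjusted p = 0.0124) in WT cells. DCLRE1C, the nuclease that opens hairpin ends, had 10.7, 7.58 and 8.12 CPM in irradiated E79Q cells with CB-839, against 11.7, 12.4 and 11.9 CPM in CB-839-treated E79Q cells, and 7.91, 9.68 and 8.63 CPM in irradiated WT cells with CB-839, against 12.0, 11.8 and 11.3 CPM in CB-839-treated WT cells. In both genotypes no library of one group reached the other, and it fell by 0.45 and 0.43 on the log2 scale (adjusted p = 0.00308 and 0.00556). POLQ had 57.02, 33.5 and 46.3 CPM in irradiated E79Q cells with CB-839, against 66.2, 75.2 and 69.98 CPM in CB-839-treated E79Q cells. It had 39.8, 56.999 and 55.7 CPM in irradiated WT cells with CB-839, against 78.3, 74.2 and 57.1 CPM in CB-839-treated WT cells. The groups were separate in both genotypes, and the log2 fold changes were -0.63 (adjusted p = 0.00137) and -0.46 (adjusted p = 0.0167), or -0.46 and -0.35 with the GC trend removed, still called. PARP1 did not pass in either (log2 fold changes 0.022 and 0.014). XRCC3, a recombination mediator that pairs with RAD51C, was the 1 gene called higher in WT cells, at 0.27 (adjusted p = 0.0246), and stood at 0.12 with the GC trend removed (adjusted p = 0.14). Of the 26 calls in E79Q cells, 15 held without any 1 library. Without replicate 2 of irradiated E79Q cells with CB-839, 17 repair genes were called there, and 9 when the 6 libraries compared were fitted alone. The share of all genes called was not taken in these fits. Of the 16 calls in WT cells, 4 held without any 1 library (ATR, DCLRE1C, RAD51AP1 and XRCC5). The count in WT cells was 5 without replicate 1 and 8 without replicate 2 of CB-839-treated WT cells, and 6 without replicate 1 of irradiated WT cells with CB-839.

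In unirradiated cells CB-839 changed 5 repair genes in E79Q cells and 4 in WT cells: 2 were higher and 3 lower in E79Q cells, and 2 higher and 2 lower in WT cells. Over all genes tested, 19.8% were called in E79Q cells (9.44% higher, 10.4% lower) and 14.8% in WT cells (6.35% higher, 8.44% lower). The median log2 fold change of the 44 was 0.077 in E79Q cells and 0.021 in WT cells, against 0.021 and -0.0070 over all genes tested. XRCC3 was higher and FANCE lower in both genotypes. XRCC3 had 49.2, 53.6 and 51.5 CPM in CB-839-treated E79Q cells, against 44.1, 38.0 and 36.0 CPM in untreated E79Q cells, and 43.6, 46.4 and 50.0 CPM in CB-839-treated WT cells, against 40.3, 37.4 and 37.5 CPM in untreated WT cells. Every treated library was above every untreated one, and the log2 fold changes were 0.39 (adjusted p = 0.00247) and 0.28 (adjusted p = 0.0316). The call in E79Q cells held when each of the 24 libraries was left out in turn, and that in WT cells was lost without replicates 2 and 3 of untreated WT cells and replicates 2 and 3 of CB-839-treated WT cells, each left out alone (adjusted p up to 0.156). FANCE had 25.4, 23.5 and 25.7 CPM in CB-839-treated E79Q cells, against 33.1, 27.1 and 31.4 CPM in untreated E79Q cells, and 26.8, 28.0 and 31.5 CPM in CB-839-treated WT cells, against 35.2, 36.8 and 35.6 CPM in untreated WT cells. The groups were separate, with log2 fold changes of -0.30 (adjusted p = 0.0337) and -0.32 (adjusted p = 0.0238). Each call was lost in 5 of the 24 fits without 1 library (adjusted p up to 0.163 and 0.122).

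In E79Q cells CB-839 also lowered XRCC6 and MDC1 and raised ATM. XRCC6 had 692, 661 and 677 CPM in CB-839-treated E79Q cells, against 834, 808 and 831 CPM in untreated E79Q cells, and the log2 fold change was -0.29 (SE 0.045, adjusted p = 3.33e-05). In WT cells it had 759, 784 and 825 CPM in CB-839-treated WT cells, against 787, 838 and 828 CPM in untreated WT cells, values that overlapped, with -0.051 (adjusted p = 0.514). The difference between the genotypes was -0.23 (SE 0.063, adjusted p = 0.0121, edgeR interaction) and held when each of the 24 libraries was left out in turn. MDC1 had 62.7, 61.4 and 65.8 CPM in CB-839-treated E79Q cells, against 74.3, 71.7 and 75.4 CPM in untreated E79Q cells, and a log2 fold change of -0.22 (adjusted p = 0.00875), while WT cells gave -0.0013 (adjusted p = 0.997). ATM had 48.5, 59.7 and 56.1 CPM in CB-839-treated E79Q cells, against 36.1, 39.9 and 40.6 CPM in untreated E79Q cells, all treated above all untreated, and a log2 fold change of 0.50 (adjusted p = 0.0201). That call was lost without replicate 1 of untreated E79Q cells and replicates 2 and 3 of CB-839-treated E79Q cells, each left out alone (adjusted p up to 0.0952). In WT cells ATM gave 0.12 (adjusted p = 0.672), although it was called higher there without the 4 drifting libraries. In WT cells the drug raised EXO1, the long-range resection nuclease, which had 45.3, 47.4 and 41.4 CPM in CB-839-treated WT cells, against 38.5, 35.5 and 35.3 CPM in untreated WT cells. The groups did not overlap, with a log2 fold change of 0.29 (adjusted p = 0.0413), a call lost in 4 of the 24 fits without 1 library. The drug also lowered RAD51D, a recombination mediator, there. RAD51D had 11.3, 14.5 and 15.4 CPM in CB-839-treated WT cells, against 17.4, 16.6 and 20.1 CPM in untreated WT cells, a log2 fold change of -0.39 (adjusted p = 0.0197), and 17.3, 19.3 and 16.4 CPM in CB-839-treated E79Q cells, against 18.3, 16.05 and 15.6 CPM in untreated E79Q cells, a log2 fold change of 0.086 (adjusted p = 0.654). The WT groups were separate and the E79Q groups overlapped, and the difference between the genotypes was 0.48 (SE 0.16, adjusted p = 0.0466). That call was lost in 17 of the 24 fits that left out 1 library each (adjusted p up to 0.162). RAD51D and XRCC6 were the 2 repair genes called for this difference, against 14.3% of all genes. With the GC trend removed, CB-839 gave 9 calls in E79Q cells (3 higher), 7 in WT cells (5 higher) and 7 for the difference, where 25.7%, 21.1% and 21.9% of all genes were called. Without the 4 drifting libraries it gave 11 calls in E79Q cells, 7 of them higher, against 23.1% of all genes, and 13 in WT cells, 11 of them higher, against 21.6% of all genes, and 8 for the difference, against 18.2%. Without replicate 2 of irradiated E79Q cells with CB-839 the counts were 12, 7 and 4. The count in E79Q cells was 3 without replicate 1 of untreated or replicate 3 of CB-839-treated E79Q cells, that in WT cells was 0 or 1 without replicates 2 or 3 of untreated or replicates 1 or 2 of CB-839-treated WT cells, and that of the difference was 1 in 16 of the 24 fits without 1 library.

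In irradiated cells CB-839 lowered 16 repair genes and raised 3 in E79Q cells, and lowered 6 and raised 1 in WT cells. Over all genes tested, 26% were called in E79Q cells (12.9% higher, 13.1% lower) and 9.53% in WT cells (4.99% higher, 4.53% lower). The median log2 fold change of the 44 was -0.23 in E79Q cells and -0.11 in WT cells, against -0.017 and -0.016 over all genes tested. These comparisons use the same irradiated libraries with CB-839 as the radiation effect in the presence of the drug. In E79Q cells, 15 of the 29 genes under 45% GC and 1 of the 15 others were called lower, while over all genes the shares were 25.4% and 6.02%. Once the GC trend was removed the counts were 13 lower and 2 higher in E79Q cells (11.8% and 13.6% of all genes) and 5 lower and 2 higher in WT cells (6.07% and 7.36%). Without the 4 drifting libraries they were 9 lower and 1 higher in E79Q cells (11.3% and 11.2%), and 6 lower and 1 higher in WT cells (6.52% and 6.19%). Leaving out replicate 2 of irradiated E79Q cells with CB-839 alone left 6 calls in E79Q cells, and leaving out replicate 1 of that group gave 29 and replicate 2 of irradiated E79Q cells 11. With the 6 libraries compared fitted alone, 3 were called. The WT count was 0 without replicate 1 of irradiated WT cells with CB-839 or replicate 3 of irradiated WT cells, 2 without replicate 1 and 4 without replicate 2 of irradiated WT cells.

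5 genes were called lower in both genotypes, a count not made over all genes tested: RIF1, BRCA2, POLQ, ATR and DCLRE1C. RIF1 had 133, 69.8 and 119 CPM in irradiated E79Q cells with CB-839, against 185, 184 and 187 CPM in irradiated E79Q cells, and 105, 147 and 149 CPM in irradiated WT cells with CB-839, against 184, 178 and 211 CPM in irradiated WT cells. In both genotypes the groups were separate, and the log2 fold changes were -0.79 (adjusted p = 0.000305) and -0.52 (adjusted p = 0.0269). BRCA2 had 49.3, 22.0 and 37.6 CPM in irradiated E79Q cells with CB-839, against 63.9, 55.6 and 58.6 CPM in irradiated E79Q cells, and 27.2, 40.8 and 40.2 CPM in irradiated WT cells with CB-839, against 56.5, 55.3 and 65.6 CPM in irradiated WT cells. The falls were log2 fold changes of -0.72 (adjusted p = 0.00243) and -0.71 (adjusted p = 0.00773), and -0.47 and -0.54 with the GC trend removed, both still called. POLQ had log2 fold changes of -0.68 (adjusted p = 0.000728) and -0.45 (adjusted p = 0.0395), ATR of -0.60 (adjusted p = 0.00152) and -0.41 (adjusted p = 0.0491), and DCLRE1C of -0.38 (adjusted p = 0.0121) and -0.35 (adjusted p = 0.0456). With the trend removed DCLRE1C was called in neither genotype (adjusted p = 0.0869 and 0.0992). LIG4, the ligase of end joining, was called in WT cells. It had 12.5, 16.8 and 15.8 CPM in irradiated WT cells with CB-839, against 21.4, 19.9 and 26.1 CPM in irradiated WT cells, with a log2 fold change of -0.58 (adjusted p = 0.0177) and -0.39 with the GC trend removed (adjusted p = 0.01), while E79Q cells gave -0.36 (adjusted p = 0.0918). The difference between the genotypes was called for 0 of the 44 genes, with 1 at an unadjusted p under 0.05 and 0 by DESeq2, against 1.91% of all genes.

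XRCC3 again ran the other way. It had 49.4, 64.2 and 54.1 CPM in irradiated E79Q cells with CB-839, against 42.7, 41.1 and 43.9 CPM in irradiated E79Q cells, and 62.6, 51.8 and 54.2 CPM in irradiated WT cells with CB-839, against 45.4, 46.3 and 43.5 CPM in irradiated WT cells. All libraries with the drug were above all without it, the drifting replicates highest, and the log2 fold changes were 0.40 (adjusted p = 0.00137) and 0.32 (adjusted p = 0.0202). With the GC trend removed they were 0.26 and 0.23, both called. At 63.8% GC, XRCC3 has the highest GC content of the 45 genes. Across the 4 CB-839 comparisons it was called higher each time, and averaged over them its log2 fold change was 0.35 (SE 0.044, adjusted p = 7.65e-07). Its overlapping neighbour KLC1 could not be told apart from it without strand. CHEK2, the effector kinase of ATM, had 9.92, 12.9 and 11.9 CPM in irradiated E79Q cells with CB-839, against 7.503, 9.96 and 9.19 CPM in irradiated E79Q cells. It was called higher at 0.40 (adjusted p = 0.0208), although its groups overlapped, and FANCC, with 22.6, 25.6 and 23.6 CPM in irradiated E79Q cells with CB-839, against 20.6, 20.0 and 19.0 CPM in irradiated E79Q cells, at 0.27 (adjusted p = 0.0284). After removal of the GC trend CHEK2 stayed called (adjusted p = 0.0268) and FANCC did not (adjusted p = 0.0526), and without the 4 libraries neither was called (adjusted p = 0.0911 and 0.101). CHEK2 was lost in 2 and FANCC in 3 of the 24 fits without 1 library.

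Genotype moved few of the repair genes. E79Q against WT gave 1 call of 44 in untreated cells, 3 with CB-839, 0 after radiation and 0 after radiation with CB-839. Over all genes tested, 19.7% were called in untreated cells (9.62% higher, 10.1% lower), 15% with CB-839 (8.3% higher, 6.72% lower), 9.64% after radiation (4.69% higher, 4.95% lower) and 7.26% after both (4.4% higher, 2.86% lower). Where edgeR called 0, DESeq2 also called 0, and 2 repair genes after radiation and 6 after both had an unadjusted p under 0.05. CHEK2 was the call in untreated cells, with 7.40, 8.99 and 9.45 CPM in untreated E79Q cells, against 13.1, 10.7 and 9.93 CPM in untreated WT cells. The groups were separate, and the log2 fold change was -0.39 (adjusted p = 0.0334), a call that was lost without replicate 1 of untreated WT cells and replicates 1 and 2 of untreated E79Q cells, each left out alone (adjusted p up to 0.241). With CB-839, RAD51D was higher in E79Q cells at 0.36 (adjusted p = 0.0323), and XRCC6 and MDC1 lower at -0.22 (adjusted p = 0.000755) and -0.18 (adjusted p = 0.0347). The call of XRCC6 held when each of the 24 libraries was left out in turn, that of RAD51D was lost without replicates 1 and 2 of CB-839-treated WT cells and replicates 1 and 2 of CB-839-treated E79Q cells, each left out alone (adjusted p up to 0.231), and that of MDC1 was lost without replicates 1 and 3 of CB-839-treated WT cells and replicates 1 and 2 of CB-839-treated E79Q cells, each left out alone (adjusted p up to 0.17). With the GC trend removed, 5 repair genes were called in untreated cells, 3 of them higher: XRCC2, FANCE, FANCM, NBN and CHEK2. The count was then 7 with CB-839, 0 after radiation, 3 after both and 10 for the average, where 26.8%, 21%, 13.8%, 11.7% and 31.6% of all genes were called in untreated cells, with CB-839, after radiation, after both and for the average. Without the 4 drifting libraries it was 4 in untreated cells, 8 with CB-839, 4 after radiation, 1 after both and 9 for the average, where 23.5%, 18.3%, 16%, 8.52% and 29.1% of all genes were called. Without replicate 2 of irradiated E79Q cells with CB-839 it was 2 in untreated cells, 7 with CB-839, 1 after both and 7 for the average. It was 0 in untreated cells without any 1 of the 3 libraries on which the call of CHEK2 rested. With CB-839 it was 1 without replicate 2 of CB-839-treated E79Q cells and 5 without replicate 1 of irradiated cells with CB-839 of either genotype. After both it was 4 without replicate 1 and 1 without replicate 3 of irradiated E79Q cells with CB-839. Averaged over the 4 treatments, FANCC was higher in E79Q cells at 0.15 (adjusted p = 0.0136), and FANCE, PRKDC and XRCC6 lower at -0.19 (adjusted p = 0.00458), -0.12 (adjusted p = 0.0122) and -0.078 (adjusted p = 0.0101), against 25.2% of all genes called (13.1% higher, 12.1% lower).

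Averaged over the 4 pairs, radiation lowered 26 of the 44 repair genes and raised 2, against 45.6% of all genes called (23.4% higher, 22.2% lower). The median of the 44 was -0.17 against -0.0040 over all genes tested. XRCC5 had the smallest adjusted p at 4.11e-08 (log2 fold change -0.21, SE 0.024), followed by XRCC6 at 2.92e-06 and TP53BP1 at 4.42e-06, and all 3 adaptors were called. The largest falls were those of ATR (-0.32), BLM (-0.32) and RIF1 (-0.31), which among the 4 pairs were called only in those with CB-839. The 2 genes called higher were XRCC3 (0.18) and FANCC (0.13). 22 of the 28 calls held under every alternative analysis and 24 without any 1 library. Once the GC trend was removed, 23 were lower and 3 higher (24% and 24.7% of all genes), and without the 4 libraries 26 lower and 1 higher (23.3% and 23.5%). CB-839, averaged in the same way, lowered 13 and raised 5, against 29.1% of all genes called (14.2% higher, 14.9% lower). Besides XRCC3, the genes called higher were EXO1 (0.14), FANCA (0.13), FANCC (0.13) and PARP1 (0.061). BRCA2 had the largest fall at -0.41 (adjusted p = 0.000512), and among the 4 pairs it was called only in irradiated cells. Of the 6 tested end-joining genes, 5 were lower, from -0.23 for LIG4 to -0.085 for XRCC5. Of the 18 calls, 12 held under every alternative analysis, among end-joining genes those of XRCC5 and XRCC6, and 13 without any 1 library. LIG4 and DCLRE1C were not called with the GC trend removed (adjusted p = 0.0514 and 0.0644), and PRKDC was lost in 12 of the 24 fits without 1 library. The counts were 11 lower and 4 higher with the trend removed (16.4% and 17.3% of all genes), and 12 lower and 5 higher without the 4 libraries (16.2% and 15%).

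A wider list of 61 other repair genes, of which 59 were tested, was set beside the 45 genes, with no test of the difference. For radiation with CB-839 it gave 2 higher and 19 lower of 59 in E79Q cells and 3 higher and 14 lower of 59 in WT cells, with medians of -0.15 and -0.094 against -0.34 and -0.21 for the 44. For radiation without the drug it gave 0 higher and 11 lower of 59 and 1 higher and 10 lower of 59. LIG3, the ligase of alternative end joining and single-strand repair, was lower in both genotypes without the drug at -0.45 (adjusted p = 5.91e-06) and -0.38 (adjusted p = 9.41e-05), and DNA2, a resection nuclease, lower with it at -0.73 (adjusted p = 2.19e-05) and -0.69 (adjusted p = 3.15e-05). POLM, an end-joining polymerase, was higher in irradiated WT cells without and with the drug, at 0.37 (adjusted p = 0.000491) and 0.28 (adjusted p = 0.00466). Cell cycle genes were counted beside them. Of 30 S-phase genes, radiation lowered 19 and raised 0 in E79Q cells and lowered 10 and raised 2 in WT cells without the drug, and lowered 9 and raised 3, and lowered 11 and raised 2, with it. PCNA, the replication clamp, fell in all 4 by 0.29 to 0.48 on the log2 scale (largest adjusted p = 0.000144). Of 30 mitotic genes, 10 were lower and 2 higher in E79Q cells and 0 lower and 2 higher in WT cells without the drug (medians -0.062 and 0.037), and 10 lower and 1 higher, and 13 lower and 0 higher, with it. The 2 called higher without the drug were UBE2C and CDK1 in both genotypes. CDKN1A, the p53-driven inhibitor of the cell cycle, rose in all 4, by 0.71 to 1.68 (largest adjusted p = 2.63e-07). Of 20 listed p53 targets, 10 were higher and 3 lower in E79Q cells and 5 higher and 4 lower in WT cells without the drug, and 9 higher and 1 lower, and 8 higher and 1 lower, with it. The part of these cell cycle changes in the falls of repair genes was not tested.

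Promoters of 40 of the 45 genes, the 250 bases before the start, were matched in RefSeq (GRCh38.p14), and 5 (RAD54B, FANCI, NBN, XRCC5 and PRKDC) are named only. Those of 3 are shown because their genes were called in 5 of the 12 comparisons, XRCC6 and MDC1 as lower and XRCC3 as higher. They lie at chr22:41621045-41621294 (+ strand), chr6:30717282-30717531 (- strand) and chr14:103715452-103715701 (- strand). RefSeq's starts differ from the deposited ones, so that the MDC1 stretch lies wholly, and the XRCC6 and XRCC3 stretches partly, inside the deposited gene. They read 5′ to 3′, and capitals mark matches to CCAAT or its reverse complement ATTGG, the box bound by NF-Y, and in MDC1 also TTTGAA, the core of the cell cycle homology region.
XRCC6: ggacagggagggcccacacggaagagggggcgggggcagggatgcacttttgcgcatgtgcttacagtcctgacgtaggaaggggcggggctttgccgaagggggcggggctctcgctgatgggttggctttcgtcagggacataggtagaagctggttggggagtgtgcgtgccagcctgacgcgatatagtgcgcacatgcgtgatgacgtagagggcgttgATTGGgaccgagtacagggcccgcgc
MDC1: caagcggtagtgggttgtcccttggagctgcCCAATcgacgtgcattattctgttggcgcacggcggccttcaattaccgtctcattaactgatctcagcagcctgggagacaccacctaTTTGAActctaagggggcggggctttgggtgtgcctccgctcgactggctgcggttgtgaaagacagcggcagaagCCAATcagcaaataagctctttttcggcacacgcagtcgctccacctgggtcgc
XRCC3: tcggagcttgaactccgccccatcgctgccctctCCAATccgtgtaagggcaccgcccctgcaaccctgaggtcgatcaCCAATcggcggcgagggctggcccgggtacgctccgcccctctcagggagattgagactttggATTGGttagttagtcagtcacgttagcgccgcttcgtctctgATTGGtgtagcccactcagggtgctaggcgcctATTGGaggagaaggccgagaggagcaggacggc

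XRCC3 holds 5 matches to the CCAAT box, counted on both strands, and 112 of 35116 promoters of the same length (0.319%) hold as many, with XRCC3 the 1 such promoter among the 40. MDC1 holds 2 such matches and 1 of TTTGAA, and XRCC6 holds 1. Over the 40 promoters, 17 held a CCAAT box (42.5%, against 32% of all promoters), 6 held TTTGAA (15%, against 13.3%), and 2, FANCA and FANCC, held at least 1 of the E2F motifs TTTCCCGC, TTTGGCGC, TTTCGCGC or TTTGCCGC (5%, against 2.79%). TGACNNNGC, the core of the element that NRF2 binds, was in 2 (5%, against 10.9%), those of FANCD2 and RIF1. Each of the 40 genes gave 1 promoter, its first listed, while the shares of all promoters count every promoter listed. All motifs were searched on both strands, matches of different motifs may overlap, and a match is a description of letters, not a site.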

How the data were processed

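RNA of 24 libraries was sequenced, 3 in each of 8 groups. The authors deposited whole-number raw counts per Ensembl gene, 1 column per library, with a gene length in base pairs as another value beside each gene. The submitters' processing notes name STAR, HTSeq and GRCh38. Versions, strand setting, treatment of overlapping genes and annotation were not given in sources used here. All 58735 IDs are in GENCODE release 29, 58708 under the same name. In the irradiated E79Q libraries with CB-839 the column names lack 1 letter of the labels and were matched by sample title.

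Genes passing filterByExpr over the 8 groups (15956 of 34983 with a read) were fitted with edgeR 4.0.16 (R 4.3.3, limma 3.58.1): TMM scaling, 1 mean per group over all 24 libraries, the quasi-likelihood F-test, 2-sided, 16 residual degrees of freedom, biological coefficient of variation 7.19%. Adjusted p-values are Benjamini-Hochberg over all genes tested, and a gene is called under 0.05. The 19 comparisons were 12 of 1 group with another, 4 differences of effects between genotypes and 3 averages. The fitting script was tested on simulated data. CPM use TMM-scaled totals, and TPM use the deposited lengths. GC content is that of the longest GENCODE transcript. The GC trend was removed as a per-library lowess offset (span 0.3). Promoters are RefSeq's (GRCh38.p14).

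The 45 genes and the other lists were chosen with earlier results of these data known. Any of the 45 may be named, with values in every library for those called in at least 3 of the 12 comparisons and, in each comparison, for the 3 called with the largest change each way. Of other repair, S-phase, mitotic and p53 genes, the rule takes the called genes with the smallest p, and LIG3, DNA2, POLM, PCNA and CDKN1A are given. Alternatives were DESeq2 1.42.0, its size factors, other filters, a replicate block, groups fitted alone, GC removal and leaving out libraries.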

Additional observations from a re-analysis of the deposited data

Results flagged for a closer look

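The effect of CB-839 in unirradiated cells differed between the genotypes for 2 repair genes in edgeR's quasi-likelihood test of the difference (Benjamini-Hochberg adjusted over all genes tested). For XRCC6 the difference, E79Q minus WT on the log2 scale, was -0.2339 (adjusted p = 0.0121), a call that held when each of the 24 libraries was left out in turn. For RAD51D it was 0.4766 (adjusted p = 0.0466), a call that was lost in 17 of the 24 fits that left out 1 library each.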

How the results depend on the processing

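The number of repair genes called in each of the 19 comparisons was recomputed under each alternative, and no called repair gene changed direction under any of them. Over the single calls, 4287 recomputed values kept their call and 593 lost it. DESeq2 and the filter of 1 CPM in 12 libraries kept every count within 1.5 times that reported. With DESeq2 size factors in edgeR there was 1 for the genotype difference in the CB-839 effect in unirradiated cells. With no filter on low counts there were 0 for E79Q against WT in untreated cells, 5 for E79Q against WT with CB-839, 3 for E79Q against WT after both treatments, 1 for the genotype difference in the CB-839 effect in unirradiated cells and 8 for the genotype average. With the groups compared fitted alone there were 5 for E79Q against WT in untreated cells, 4 for E79Q against WT after radiation, 8 for E79Q against WT with CB-839, 13 for radiation in WT cells, 11 for radiation in E79Q cells, 9 for radiation in E79Q cells with CB-839, 7 for CB-839 in unirradiated WT cells, 13 for CB-839 in unirradiated E79Q cells and 3 for CB-839 in irradiated E79Q cells. With the GC trend of each library removed there were 5 for E79Q against WT in untreated cells, 7 for E79Q against WT with CB-839, 3 for E79Q against WT after both treatments, 11 for radiation in WT cells, 10 for radiation in E79Q cells, 7 for CB-839 in unirradiated WT cells, 9 for CB-839 in unirradiated E79Q cells, 7 for the genotype difference in the CB-839 effect in unirradiated cells and 10 for the genotype average. Without the library that drifted with GC content over all genes, replicate 2 of irradiated E79Q cells with CB-839, there were 2 for E79Q against WT in untreated cells, 7 for E79Q against WT with CB-839, 1 for E79Q against WT after both treatments, 11 for radiation in WT cells, 17 for radiation in E79Q cells with CB-839, 7 for CB-839 in unirradiated WT cells, 12 for CB-839 in unirradiated E79Q cells, 6 for CB-839 in irradiated E79Q cells, 4 for the genotype difference in the CB-839 effect in unirradiated cells and 7 for the genotype average. Without the 4 libraries, an alternative chosen after seeing the data, there were 4 for E79Q against WT in untreated cells, 4 for E79Q against WT after radiation, 8 for E79Q against WT with CB-839, 1 for E79Q against WT after both treatments, 12 for radiation in WT cells, 13 for CB-839 in unirradiated WT cells, 11 for CB-839 in unirradiated E79Q cells, 10 for CB-839 in irradiated E79Q cells, 8 for the genotype difference in the CB-839 effect in unirradiated cells and 9 for the genotype average. Besides the reported fit, the share of all genes called was taken only with the GC trend removed and without the 4 libraries. Under the other alternatives, also those below, a shift in count cannot be told from a general change in calling. The causes of these shifts were not tested.

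Replicate numbers share only a number: 4 of 24 libraries deviated most like another of their own number, and the correlation of deviations between libraries of the same number ran from -0.175 to 0.0871 over 84 pairs. With the replicate block there were 4 for CB-839 in irradiated WT cells and 1 for the genotype difference in the CB-839 effect in unirradiated cells. With the replicate block and the GC trend removed there were 4 for E79Q against WT in untreated cells, 1 for E79Q against WT after radiation, 7 for E79Q against WT with CB-839, 4 for E79Q against WT after both treatments, 11 for radiation in WT cells, 7 for CB-839 in unirradiated WT cells, 8 for CB-839 in unirradiated E79Q cells, 7 for the genotype difference in the CB-839 effect in unirradiated cells and 10 for the genotype average.

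Leaving out each library in turn gave 0 to 2 for E79Q against WT in untreated cells, 1 to 7 for E79Q against WT with CB-839, 0 to 4 for E79Q against WT after both treatments, 3 to 9 for radiation in E79Q cells, 17 to 30 for radiation in E79Q cells with CB-839, 2 to 11 for radiation in WT cells, 5 to 23 for radiation in WT cells with CB-839, 3 to 12 for CB-839 in unirradiated E79Q cells, 6 to 29 for CB-839 in irradiated E79Q cells, 0 to 7 for CB-839 in unirradiated WT cells, 0 to 10 for CB-839 in irradiated WT cells, 1 to 4 for the genotype difference in the CB-839 effect in unirradiated cells, 4 to 7 for the genotype average, 24 to 32 for the radiation average and 13 to 23 for the CB-839 average. The counts for E79Q against WT after radiation, the genotype difference in the radiation effect without the drug, that difference with CB-839 and the genotype difference in the CB-839 effect in irradiated cells were 0 each time, while E79Q against WT after radiation gave 1 to 4 calls under 3 other alternatives above. The 3 libraries of a group and 16 residual degrees of freedom limit what small falls can be called, and NHEJ1 had too few counts to test.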
